A study of Marmota monax with 203 samples.

Results

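Ammonia that is released when amino acids are broken down is toxic to the brain, and the liver removes it by 2 routes that lie in different hepatocytes. Hepatocytes near the portal vein run the urea cycle, which joins ammonia and aspartate nitrogen into urea in steps shared between mitochondria and cytosol. A rim of hepatocytes around the central vein takes up the ammonia that escapes and builds it into glutamine. The 9 genes described here cover both routes: NAGS, CPS1, OTC and SLC25A15 for the mitochondrial steps, ASS1, ASL and ARG1 for the cytosolic steps, and GLS2 and GLUL for glutamine breakdown and synthesis. They were chosen by symbol, and all 9 were listed in every sequencing run, among 17587 genes in all.

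The biopsies came from livers of woodchucks (Marmota monax), male and female adults infected as newborns with woodchuck hepatitis virus (WHV) and chronic carriers since. The animals received recombinant woodchuck interferon-α (wIFN-α) or vehicle (placebo) under the skin 3 times a week, at 20 μg per dose at weeks 0 and 3 and 100 μg at weeks 7, 11 and 15. Biopsies of weeks 0 to 15 were taken hours after a dose, those of week -3 before treatment, and those of weeks 19 and 23 in follow-up. In the wIFN-α group the week 0 biopsy followed the first dose of 20 μg. The week 7 biopsy followed the first dose of 100 μg, after weeks at 20 μg. The labels number the weeks after week -3 as 1, 4, 8, 12, 16, 20 and 24, because they count the first treatment week as 1, and the study's numbering is used here. In the same order as the weeks, 12, 12, 12, 12, 10, 9, 5 and 9 placebo animals were compared with 11, 11, 9, 9, 8, 8, 6 and 6 wIFN-α animals. The 7 biopsies of the wIFN-α animal M1004, which the study set aside, and 8 biopsies of other times stayed outside the comparisons.

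Reads on genes numbered 12072840 to 84805845 in the 149 biopsies compared (median 28754894), and no gene of the 9 had fewer than 42 reads in a biopsy that was compared. The 9 genes together took a median of 0.573% of the gene reads in placebo biopsies. The treatment check was MX1, an antiviral gene that interferon switches on, and it was higher in wIFN-α animals at every treatment week, by 3.47 to 3.83 on the log2 scale. At weeks 19 and 23 the MX1 difference was 0.51 and 0.40, with adjusted p of 0.31 and 0.49.

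Some biopsies held tissue other than liver. Reads on 20 skeletal muscle genes made up over 5% in 5 of the 149 biopsies compared, against a median of 0.0383% in the others. At week -3 the biopsies of F1016 (placebo) and F1018 (wIFN-α) had 13.96% and 13.67% muscle reads. Reads on 15 hepatocyte genes were at 0.0417% and 0.0284% in these, against 7.76% to 20.4% in the 144 biopsies below the muscle limit, so both went against their liver label. CPS1 stood at 2.80 and 1.65 CPM (read counts scaled to library size, with TMM factors) there, where the 144 other biopsies ranged from 325 to 3773 CPM. GLUL, which muscle also expresses, was not low in them, at 446 and 925 CPM. F1021 and M1011 (placebo, week 3) with 11.6% and 5.02% muscle reads and F1023 (wIFN-α, week 0) with 7.59% kept hepatocyte reads of 4.29% to 7.82%. Leaving them out changed no call among the 9 genes in the fits of weeks -3, 0 and 3, and where it changed another result the value without them is given beside it. The 2 runs of the placebo animal M1008 at week 15 differed by up to 0.41 on the log2 scale among the 9 genes (ASL), the largest such range among the 38 biopsies with more than 1 run.

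In placebo livers the 9 genes spanned a wide range. Per kilobase of transcript, ARG1, which splits arginine into urea and ornithine, had the highest median over the 81 placebo biopsies, at 508 CPM per kb. ASS1, which joins citrulline to aspartate, followed at 347 CPM per kb, CPS1, which makes carbamoyl phosphate from ammonia in the committed step, at 206 and OTC, which makes citrulline, at 170. GLUL, glutamine synthetase, had a median of 63.6 CPM per kb and ASL, which releases arginine from argininosuccinate, 54.0. NAGS, the enzyme that makes the obligate activator of CPS1, had 26.5 CPM per kb, GLS2, the liver glutaminase, 18.1 and SLC25A15, the mitochondrial ornithine carrier, 8.75. The ranges of mean ± SD (n = 81) did not overlap between OTC (159 ± 42.4) and GLUL (66.9 ± 23.8) or between ASL (54.4 ± 16.8) and NAGS (26.5 ± 5.84), and overlapped between all the other neighbours in this order. The order of the medians was the same in the 78 biopsies below the muscle limit, from 510 CPM per kb for ARG1 to 8.79 for SLC25A15. Biopsies of the same animal are among the 81, so this spread mixes animals and weeks. The order also rests on transcript lengths derived from the deposited RPKM values, at 10444 bases for CPS1, 9032 for GLUL and 1965 for ARG1. Before division by length the median of CPS1 was 2148 CPM, above the 999 CPM of ARG1.

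**Figure D1:**
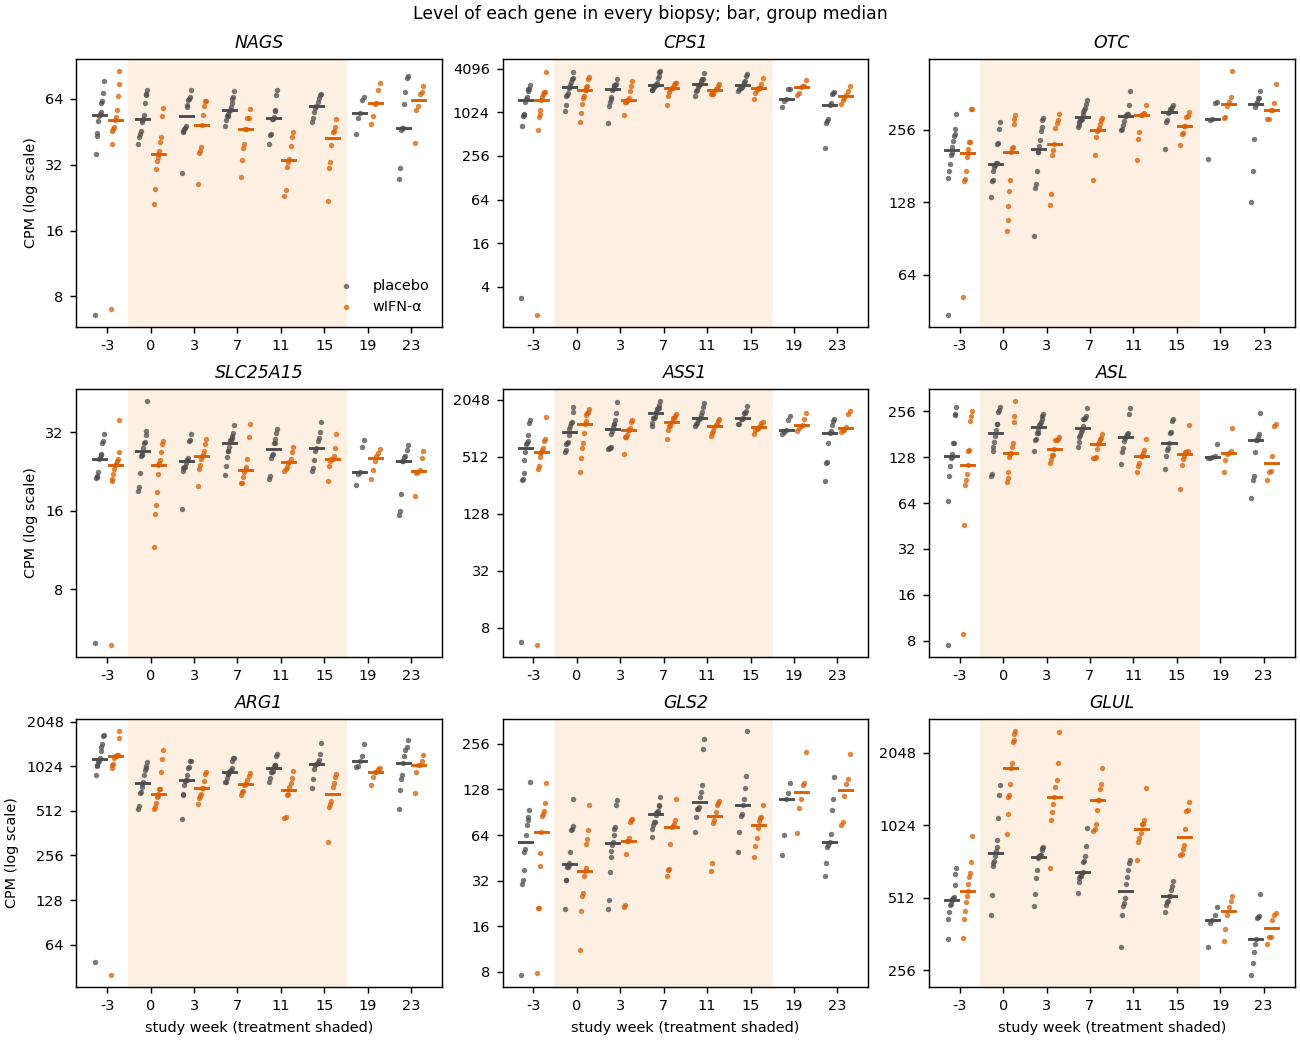
Level of each of the 9 genes in CPM (log2 axis) in every compared biopsy at each study week, placebo in grey and wIFN-α in orange, with a bar at the group median and the treatment weeks shaded. The GLUL points of the wIFN-α animals sit above most placebo points from week 0 to week 15 and within the placebo range at week 23, and the 2 lowest points at week -3 in most panels are the biopsies of F1016 and F1018.

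Under wIFN-α GLUL rose at all 5 treatment weeks. The other 8 genes were each called at 0 to 4 of these weeks, and every one of those calls was lower. Calls are those with an adjusted p below 0.05 in edgeR's quasi-likelihood test of the week. At week 0, 1 of the 9 genes was higher (GLUL) and 1 lower (NAGS), where 18.4% of all genes tested were called higher and 16.2% lower. At week 3, GLUL was higher and ASL lower, against 11.8% and 7.6% of all genes. At week 7, GLUL was higher and 7 of 9 genes were lower, all but SLC25A15, against 23.6% and 23% of all genes. At week 11, 1 gene was higher (20.2% of all genes) and 5 were lower (17.2% of all genes), and at week 15, 1 was higher (22.3%) and 4 were lower (19.2%). The median log2 difference of the 9 genes was -0.24, -0.15, -0.36, -0.38 and -0.31 at weeks 0, 3, 7, 11 and 15, where the median of all genes tested lay between -0.04 and -0.01. No gene of the 9 was called at week -3, 19 or 23. The placebo and wIFN-α animals of successive weeks are largely the same individuals, so the weeks are not independent of each other. In bulk tissue, fewer cells of a type and less RNA per cell cannot be told apart.

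The lower calls differed between fits. In each week's own fit 7, 5 and 4 genes were lower at weeks 7, 11 and 15. In a fit of all weeks with the animal as a replicate block (voom fit with an estimated correlation within animals), 0, 1 and 1 were called lower, and GLUL was called at every treatment week. That fit differs from the weekly tests in the weeks pooled, in the model and in the block, and which of these moved the calls was not tested. That pooled fit takes in the week -3 biopsies of F1016 and F1018. Without the 5 muscle-rich biopsies the blocked fit called 1, 4 and 3 genes lower (an alternative chosen after seeing the data). The sign of no called difference changed in any of these fits.

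GLUL makes glutamine from glutamate and ammonia and serves as the scavenger around the central vein. It belongs to a gene set that the study built from these same biopsies, so its rise is not independent evidence. At week 0 the placebo animals ranged from 435 to 1508 CPM (median 785) and the wIFN-α animals from 942 to 2517 CPM (median 1765). Of the 11 wIFN-α animals, 7 exceeded the highest placebo value and none lay below the placebo median. The log2 difference was 1.01 ± 0.20 (SE, adjusted p = 0.00036), a 2.01-fold higher level. Without the muscle-rich biopsy of F1023 it was 1.04 (adjusted p = 0.00032). Each of the 11 animals had a higher level at week 0 than at week -3, by 0.53 to 2.47 on the log2 scale, and so did 11 of 12 placebo animals, by a median of 0.70 against 1.63 in the wIFN-α group. Without the muscle-rich biopsies 9 of 9 wIFN-α animals (1.05 to 2.47) and 10 of 11 placebo animals (median 0.67) had a higher level at week 0.

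At week 3 placebo levels of GLUL were 473 to 833 CPM (median 758) and wIFN-α levels 679 to 2488 CPM (median 1349), and 8 of 9 wIFN-α animals lay above all placebo animals. The exception was F1013, with 679 CPM. The same biopsy had the lowest MX1 of its group, 683 CPM, within the placebo range of 176 to 752 CPM, and F1013 was at 2276 CPM of GLUL and 6073 CPM of MX1 at week 0. The log2 difference at week 3 was 0.98 ± 0.17 (adjusted p = 0.00022), and 0.96 (adjusted p = 0.0005) without the muscle-rich biopsies of F1021 and M1011. At week 7 wIFN-α animals ranged from 973 to 1776 CPM (median 1301) against 537 to 995 CPM (median 653) in placebo, a difference of 0.87 ± 0.11 (adjusted p = 1.7e-06), and 7 of 9 were above all placebo animals. At week 11 the ranges were 736 to 1467 CPM (median 992) and 320 to 738 CPM (median 546), a difference of 0.86 ± 0.15 (adjusted p = 0.00022). At week 15 the groups did not overlap: 773 to 1281 CPM (median 918) in wIFN-α against 449 to 601 CPM (median 519) in placebo, a difference of 0.92 ± 0.11 (adjusted p = 4e-06). To compare the groups within sequencing lanes, each week's placebo mean over all lanes was first subtracted. Over weeks 0 to 15 GLUL was higher in wIFN-α animals in all 7 lanes, by 0.57 to 1.11 on the log2 scale.

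GLS2 is the liver glutaminase, which releases ammonia from glutamine in the periportal hepatocytes that run the urea cycle. It varied widely within both groups. At week 11 placebo animals ranged from 66.6 to 277 CPM (median 106) and wIFN-α animals from 37.0 to 108 CPM (median 85.9). The log2 difference was -0.74 ± 0.28 (adjusted p = 0.045) and the ranges overlapped, with 7 of 8 wIFN-α animals below the placebo median. The week 11 call held in 7 of 13 alternative fits. It was lost, among others, with limma-voom (adjusted p = 0.060), with sex in the fit (0.051) and in the fit of all weeks (0.089). Single animals were not left out in turn at week 11. At week 15 it was -0.76 ± 0.29 (adjusted p = 0.045), between 45.9 and 100 CPM (median 74.7) in wIFN-α and between 49.2 and 310 CPM (median 102) in placebo. The highest placebo value belonged to F1021, and without this animal the difference was -0.46 (adjusted p = 0.086). Leaving out any of 8 other animals in turn also ended the call at week 15. At week 7 the difference of -0.43 ± 0.18 had an adjusted p of 0.0499 and did not hold in 14 of the 21 fits that left out 1 animal. Over weeks 0 to 15 the GLS2 difference was below 0 in each of the 7 lanes (-0.69 to -0.29), but with the lane in the fit the week 15 call was lost (-0.60, adjusted p = 0.29).

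**Figure D2:**
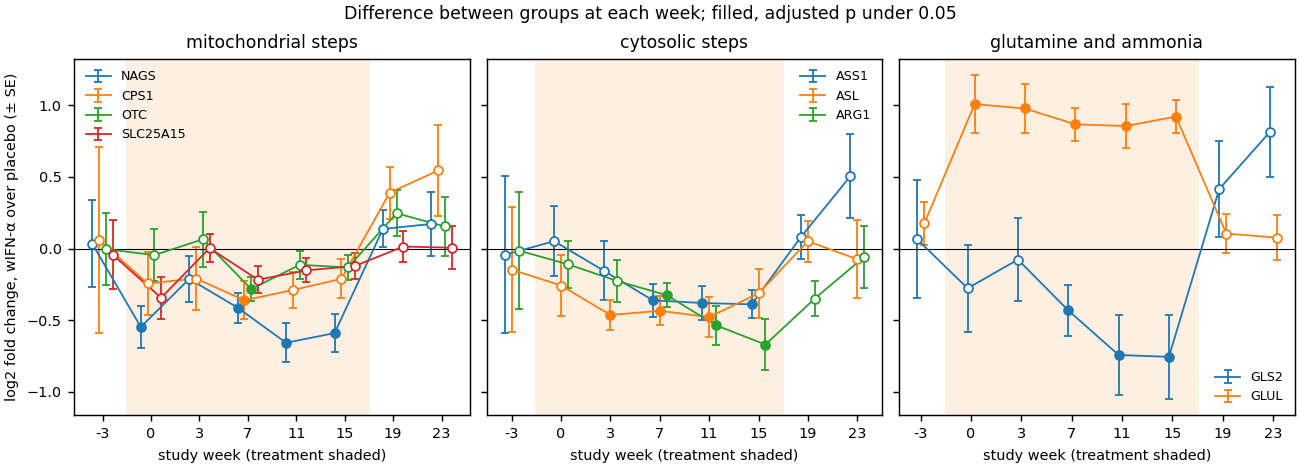
Log2 fold change of wIFN-α over placebo (± SE) for the mitochondrial, cytosolic and glutamine genes at each study week, with treatment weeks shaded and filled symbols where the adjusted p was under 0.05. GLUL lies between 0.86 and 1.01 at the treatment weeks and close to 0 before and after, and the called urea cycle genes lie between -0.67 and -0.28.

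Among the mitochondrial genes NAGS was called at 4 of the 5 treatment weeks. NAGS makes N-acetylglutamate, without which CPS1 is inactive. At week 0 placebo levels were 40.0 to 70.1 CPM (median 51.5) and wIFN-α levels 21.1 to 58.0 CPM (median 35.9), with 7 of 11 wIFN-α animals below all placebo animals. The log2 difference was -0.55 ± 0.14 (adjusted p = 0.0043), and -0.48 (adjusted p = 0.0058) without F1023, the lowest of the wIFN-α animals. At week 3 the groups overlapped almost fully, with medians of 53.5 and 48.7 CPM and a difference of -0.21 ± 0.16 (adjusted p = 0.37). NAGS was again lower at week 7 (-0.41 ± 0.11, adjusted p = 0.0027) and week 11 (-0.66 ± 0.14, 0.00086). At week 15 placebo animals had 50.4 to 67.1 CPM (median 59.3) and wIFN-α animals 22.0 to 51.8 CPM (median 42.2), and 7 of the 8 wIFN-α animals lay below the lowest placebo value. That difference was -0.59 ± 0.13 (adjusted p = 0.0019), and it was called in each of the 30 alternative fits of week 15.

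CPS1, OTC and SLC25A15 showed smaller differences. CPS1 at week 7 was 2110 to 3773 CPM (median 2456) in placebo and 1290 to 2582 CPM (median 2195) in wIFN-α, a log2 difference of -0.36 ± 0.13 (adjusted p = 0.028). Leaving out M1007, M1011, F1016 or F1018 raised that adjusted p to between 0.050 and 0.058, and with the lane in the fit the difference was -0.29 (adjusted p = 0.24). At the other treatment weeks the CPS1 difference ranged from -0.29 to -0.21 with adjusted p of 0.075 to 0.53. OTC was called at week 7 only, with 262 to 340 CPM (median 289) in placebo and 158 to 286 CPM (median 255) in wIFN-α, a difference of -0.28 ± 0.09 (adjusted p = 0.0094). SLC25A15, which brings ornithine into the mitochondrion, was called at no week in the fits of single weeks, and its lowest adjusted p was 0.064 at week 7, for a difference of -0.22 ± 0.09. Without F1015, F1020, F1022 or F1024 it was called at that week (adjusted p of 0.0084 to 0.047). At week 0 its difference was -0.34 ± 0.15 (adjusted p = 0.071), and 9 of 37 alternatives called it, among them the fit of all weeks (adjusted p = 0.039) and those without M1002, M1007, M1010 or F1021 (0.044 to 0.049).

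Of the cytosolic genes ARG1 had the largest difference. ARG1 closes the cycle and is among the most abundant hepatocyte enzymes. Its placebo levels at week 15 were 732 to 1466 CPM (median 1066) and its wIFN-α levels 314 to 914 CPM (median 669). All 8 wIFN-α animals lay below the placebo median and 4 below every placebo animal. The log2 difference was -0.67 ± 0.18 at week 15 (adjusted p = 0.0064), -0.54 ± 0.14 at week 11 (0.0044) and -0.33 ± 0.08 at week 7 (0.0026). At weeks 0 and 3 ARG1 was 664 and 728 CPM in wIFN-α (medians) and 793 and 826 CPM in placebo, with adjusted p of 0.64 and 0.29.

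ASS1 and ASL carry out the consecutive steps that bring in aspartate nitrogen. ASS1 at week 15 ranged from 1122 to 1770 CPM (median 1303) in placebo and from 881 to 1192 CPM (median 1046) in wIFN-α, with 6 of 8 wIFN-α animals below all placebo animals. The log2 difference was -0.39 ± 0.10 (adjusted p = 0.0042), after -0.38 ± 0.12 at week 11 (0.015) and -0.36 ± 0.12 at week 7 (0.014). With the sequencing lane in the fit these became -0.27, -0.27 and -0.31 with adjusted p of 0.088, 0.12 and 0.13. ASL was lower at week 3, with 140 to 247 CPM (median 200.4) in placebo and 116 to 174 CPM (median 144) in wIFN-α, a difference of -0.46 ± 0.11 (adjusted p = 0.0036), and every wIFN-α animal was below the placebo median. Without the muscle-rich biopsies it was -0.46 (adjusted p = 0.0067). The week 3 call was lost with the replicate block (adjusted p = 0.32, and 0.057 without the muscle-rich biopsies) and in the fit of all weeks (0.17 and 0.081). It was also lower at week 7 (-0.43 ± 0.10, adjusted p = 0.0013) and week 11 (-0.48 ± 0.14, 0.012). With the lane in the fit the week 11 difference was -0.33 (adjusted p = 0.093). The ASL difference of -0.31 ± 0.17 at week 15 was not called (adjusted p = 0.15). Leaving out F1020 made it -0.43 (adjusted p = 0.040).

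Markers of other cells were read beside these differences. At week 15, 22.3% of all genes tested were called higher and 19.2% lower. The 15 hepatocyte genes, ALB and APOB among them, took 7.96% to 12.7% of reads in wIFN-α and 8.34% to 11.2% in placebo at week 15. None of the 15 was called lower there, and 2 were higher (FGB and HPX, at 0.85 and 0.82 on the log2 scale). Markers of T and NK cells were higher for 9 of 11 genes at week 15, and their share of reads was 0.00961% to 0.0247% in wIFN-α against 0.00466% to 0.00742% in placebo. Of 12 macrophage genes 5 were higher and CD163 was lower. At the same week 2 of 10 neutrophil genes (CSF3R 2.59), 3 of 7 B and plasma cell genes (MZB1 1.76), 2 of 7 cholangiocyte genes (SOX9 0.90) and 1 of 4 liver tumour genes (PEG3 1.49) were higher and none lower. Of 10 stellate and endothelial genes 1 was higher and 4 were lower (COL1A1 -2.71), and no skeletal muscle gene of 18 was called. Of 10 interferon response genes 9 were higher, led by RSAD2 at 7.28 on the log2 scale. The part of these cells in the GLUL and urea cycle differences was not tested.

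The effect of dose asked whether the difference at week 15, at 100 μg, was unlike the mean difference at weeks 0 and 3, at 20 μg. None of the 9 genes was called, where 2.26% of all genes tested were, and none of the 9 reached an unadjusted p under 0.05. For GLUL the change in effect was -0.10 ± 0.20 (adjusted p = 0.90). The largest changes were those of GLS2 (-0.60 ± 0.41, adjusted p = 0.56) and ARG1 (-0.52 ± 0.29, adjusted p = 0.41). The SEs leave room for changes of either sign in most of the 9 genes, and dose cannot be told apart from time on treatment, since each animal received the low dose first.

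To ask whether the differences lasted after the last dose, the effect at weeks 19 and 23 was compared with that at weeks 7, 11 and 15. Like the dose comparison, this came from a fit without an animal term, so repeated biopsies of an animal were taken as independent. Of the 9 genes 2 were called with a higher effect in follow-up, NAGS and GLS2 (16.7% of all genes), and 1 with a lower effect, GLUL (19.8% of all genes). The effect on GLUL fell by 0.77 on the log2 scale (SE 0.17, adjusted p = 8.3e-05). Each of the 6 wIFN-α animals followed had lower GLUL in follow-up than at weeks 7 to 15, by 0.93 to 1.73 (median 1.46) on the log2 scale, and the 9 placebo animals with such biopsies also had lower GLUL, with a median change of -0.65. At week 23 GLUL was 329 to 443 CPM (median 382) in wIFN-α and 246 to 531 CPM (median 346) in placebo, a difference of 0.08 ± 0.16 (adjusted p = 0.81).

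The effect on NAGS rose by 0.73 ± 0.21 (adjusted p = 0.0032), and NAGS was higher in follow-up in 6 of 6 wIFN-α animals and in 4 of 9 placebo animals. At week 19 NAGS was 49.4 to 75.9 CPM in wIFN-α and 44.3 to 65.0 CPM in placebo. The effect on GLS2 rose by 1.28 ± 0.35 (adjusted p = 0.0019). GLS2 was higher in follow-up in 6 of 6 wIFN-α animals, by a median of 0.74 on the log2 scale, and lower in 7 of 9 placebo animals, by a median change of -0.39. CPS1 (0.77 ± 0.37, adjusted p = 0.087), ASS1 (0.69 ± 0.32, 0.084) and OTC (0.40 ± 0.19, 0.096) were not called with all biopsies. Without the 5 muscle-rich biopsies, whose spread enters this fit, all 3 passed, at adjusted p of 0.0035, 0.0072 and 0.035, for 6 called genes in all. The same count of 6 was found without F1018 alone. With each animal as a term of its own in edgeR, which is not the voom block of the weekly differences, CPS1 was called as well (0.91, adjusted p = 0.043).

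Markers of other cells moved in the same comparison. The effect of wIFN-α was lower in follow-up for 9 of 10 neutrophil genes (median -1.65), 8 of 11 T and NK cell genes (-1.28) and 3 of 8 B and plasma cell genes (-0.90), and 1 of 15 hepatocyte genes was lower and none higher. Among 15 genes of hepatocytes around the central vein, GLUL aside, it was higher for 6 and lower for 1 (median 0.37). For 12 periportal genes the counts were 1 and 1 (0.21). Of 29 genes of amino acid catabolism 10 were higher and none lower (0.54). Over all genes 16.7% were higher and 19.8% lower. The share of T and NK cell reads was 0.00436% to 0.0132% in wIFN-α and 0.00567% to 0.0151% in placebo at week 23, and that of neutrophil reads 0.00462% to 0.0156% and 0.0108% to 0.0558%. Their part in the changes of GLUL, NAGS and GLS2 was not tested.

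**Figure D3:**
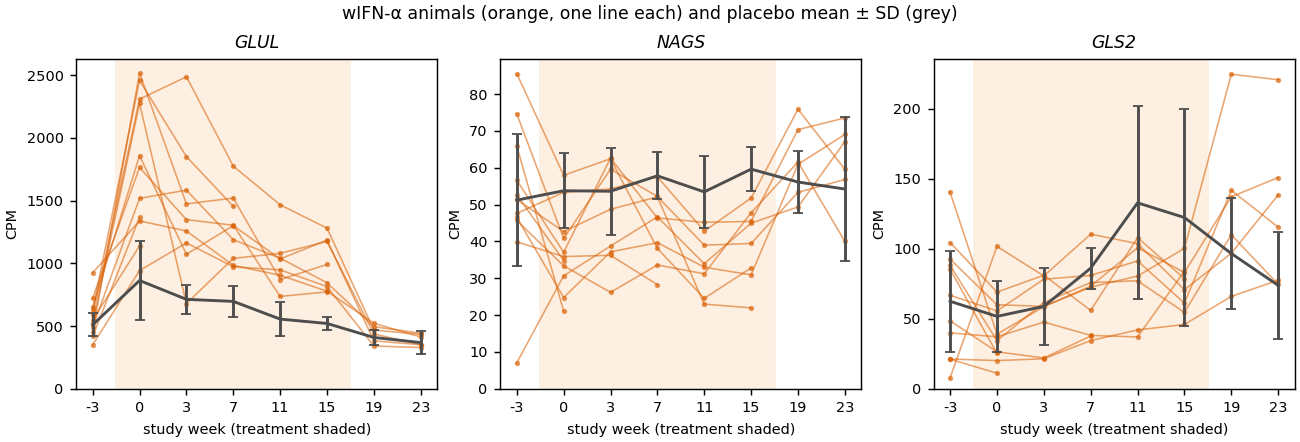
GLUL, NAGS and GLS2 in CPM against study week, with a line for each wIFN-α animal (orange) and the placebo mean ± SD (grey), treatment weeks shaded. GLUL is lower in follow-up than at weeks 7 to 15 in 6 of 6 wIFN-α animals, and NAGS and GLS2 are higher in 6 of 6.

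Week by week, no gene of any kind was called at week 19 or 23 (0% of 14715 and 14956 genes tested), although 1859 and 2416 genes had an unadjusted p under 0.05 and DESeq2 called 175 and 57. Of the 9 genes, ARG1 at week 19 (-0.35 ± 0.12, adjusted p = 0.34) and GLS2 at week 23 (0.81 ± 0.31, adjusted p = 0.27) had an unadjusted p under 0.05. ARG1 at week 19 was 762 to 993 CPM in 6 wIFN-α animals and 1004 to 1445 CPM in 5 placebo animals, and the groups did not overlap. How many of all genes were without overlap in groups this small was not counted. CPS1 at week 23 was 1343 to 2361 CPM (median 1695) in wIFN-α and 325 to 1934 CPM (median 1298) in placebo, a difference of 0.55 ± 0.31 (adjusted p = 0.37). With the replicate block and without the muscle-rich biopsies it was 0.70 (adjusted p = 0.046). Before treatment, at week -3, 0 of 9 genes and 0% of 14963 genes tested were called in edgeR, 130 genes had an unadjusted p under 0.05, DESeq2 called 0 of 17544, and the differences among the 9 genes were -0.15 to 0.18 with SEs of up to 0.65 for CPS1. Without the biopsies of F1016 and F1018 they were -0.14 to 0.08, with none called.

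In the placebo animals alone some of the 9 genes differed between the 8 weeks and others were not called. A test of any difference between weeks called 5 of the 9, GLUL, OTC, GLS2, ASS1 and CPS1, where 68% of all genes tested were called. This fit, used also for the placebo comparisons below, had no animal term, so it took repeated biopsies of an animal as independent. The 5 genes were called in each of 20 alternatives, among them a fit with animal terms. NAGS (adjusted p = 0.92), SLC25A15 (0.23), ASL (0.17) and ARG1 (0.17) were not called. Without the 3 muscle-rich placebo biopsies ARG1 also passed (adjusted p = 0.00079).

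GLUL had the lowest adjusted p of the 9 genes in these animals (1.1e-10). Its placebo mean was 509 ± 92.1 CPM (SD, n = 12) at week -3, 863 ± 316 (n = 12) at week 0, 713 ± 116 (n = 12) at week 3 and 697 ± 124 (n = 12) at week 7. It then stood at 555 ± 133 (n = 10), 520 ± 48.4 (n = 9), 409 ± 56.5 (n = 5) and 368 ± 91.0 (n = 9) at weeks 11, 15, 19 and 23. So the level was highest at week 0 and lowest at week 23. From week -3 to week 0 GLUL rose in 11 of 12 animals, and the 2 highest week 0 levels were 1508 CPM (F1016) and 1364 CPM (M1009). In the same interval ARG1 was lower in 11 of 12 animals, with group medians of 1139 and 793 CPM, and CPS1 was higher in 11 of 12, with medians of 1500 and 2257 CPM. Without the muscle-rich biopsies GLUL was higher in 10 of 11, ARG1 lower in 11 of 11 and CPS1 higher in 10 of 11. The share of reads on hepatocyte genes had medians of 16.0% and 12.0% at these weeks.

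Late treatment weeks (7, 11 and 15) were compared with the earlier ones (-3, 0 and 3) in placebo. Higher levels were called for 4 of the 9 genes, GLS2, ASS1, OTC and CPS1 (20.4% of all genes), and a lower level for GLUL (28.3% of all genes). GLS2 rose from means of 51.7 to 62.5 CPM in the early weeks to 86.2 to 133 CPM, a log2 change of 0.97 ± 0.17 (adjusted p = 2.7e-06), and it was higher at weeks 7 to 15 than at weeks 0 and 3 in 12 of 12 animals. OTC rose by 0.55 ± 0.09 (adjusted p = 1.5e-06), also in 12 of 12 animals. Its mean was 195 to 210 CPM in the early weeks and 293 to 295 CPM in the late ones. ASS1 rose by 0.73 ± 0.16 (adjusted p = 0.00017), from means of 619 to 1033 CPM to means of 1376 to 1498 CPM. CPS1 rose by 0.51 ± 0.18 (adjusted p = 0.014). With week -3 and the muscle-rich biopsies left out CPS1 had 0.29 (adjusted p = 0.068), and the other 3 were called. ARG1, with 0.14 in the main fit (adjusted p = 0.32), was called higher in that alternative only (0.26, adjusted p = 0.0096). GLUL fell by 0.20 ± 0.08 (adjusted p = 0.033). That call was lost with the lane in the fit (-0.14, adjusted p = 0.18) and without any 1 of 5 animals (M1005, M1008, M1010, F1017 or F1019), and with week -3 left out the change was -0.42 (adjusted p = 9.7e-05, muscle-rich biopsies also left out).

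In follow-up, placebo levels of 3 of the 9 genes were lower than at weeks 7 to 15 (14.8% of all genes were) and none was higher (18.9% of all genes were). CPS1 fell by 0.86 ± 0.25 (adjusted p = 0.0065) and was lower in 9 of 9 animals. Its placebo mean was 2580 ± 499 CPM (n = 9) at week 15 and 1218 ± 587 CPM (n = 9) at week 23, and the 4 lowest week 23 values were 325 CPM (M1005), 718 CPM (M1008), 768 CPM (F1015) and 838 CPM (F1019). ASS1 fell by 0.59 ± 0.23 (adjusted p = 0.039), also in 9 of 9 animals. Its call was lost without M1005, M1008, M1011, F1015, F1017 or F1019 (adjusted p of 0.052 to 0.13). GLUL fell by 0.60 ± 0.11 (adjusted p = 2e-05). Without the muscle-rich biopsies SLC25A15 (-0.24, adjusted p = 0.013) and ASL (-0.39, 0.025) were called as well, for 5 genes in all. OTC showed no such difference (-0.05 ± 0.13, adjusted p = 0.80). Skeletal muscle genes were lower at the late weeks than at the early ones (18 of 20 called), and 6 of 20 were lower again in follow-up. Other lists also moved from early to late weeks, where 20.4% of all genes were higher and 28.3% lower. Of 15 hepatocyte genes 3 were higher and 5 lower. For 29 genes of amino acid catabolism the counts were 18 and 2. Among 11 T and NK cell genes 4 were lower, among 10 neutrophil genes 3, and none higher. In follow-up 7 of 10 neutrophil genes, 6 of 11 T and NK cell genes, 6 of 7 B and plasma cell genes and 3 of 12 macrophage genes were higher. No gene of these immune cell lists was lower in follow-up. The calls of CPS1, ASS1 and GLUL remained without the muscle-rich biopsies, and the part of the other cells in these changes was not tested.

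**Figure D4:**
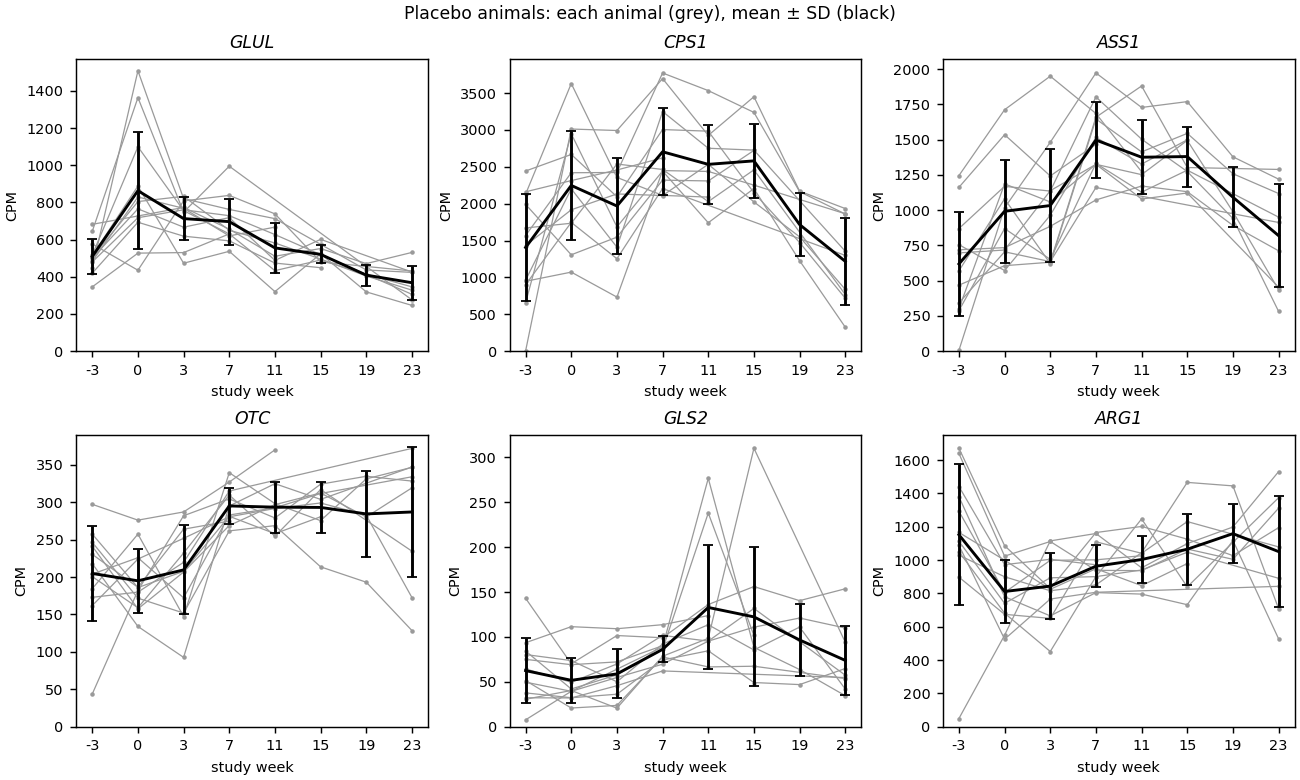
Levels of GLUL, CPS1, ASS1, OTC, GLS2 and ARG1 in CPM in the placebo animals at the 8 study weeks (spaced equally), with a grey line for each animal and the mean ± SD in black. GLUL peaks at week 0 (mean 863 CPM) and is lowest at week 23 (368 CPM), CPS1 and ASS1 are highest at week 7 and fall in follow-up, and OTC steps up between weeks 3 and 7.

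Across the 81 placebo biopsies, which share animals and weeks, the levels of CPS1 and ASS1 went together most closely among the 9 genes, with a Spearman rho of 0.79. The next pairs were OTC and ASS1 (0.62), OTC and GLS2 (0.57) and CPS1 and SLC25A15 (0.57). GLUL had a rho of -0.33 with ARG1, -0.24 with OTC and -0.15 with GLS2, but 0.41 with CPS1. Leaving out the muscle-rich biopsies moved these values by less than 0.05 (78 biopsies). Of 10835 other genes, those most like CPS1 were CPN2 (0.81), SERINC3 (0.80) and CYP2C8 (0.78). For ASS1 they included FH (0.86) and MAT2A (0.84), and for OTC they were ADH5 (0.91), MGST1 (0.89) and IVD (0.88). ARG1 was nearest to HADH (0.78), ACAA2 (0.77) and SULT1A4 (0.77), and GLS2 to PBX3 (0.74), ACSM5 (0.72) and PDE8B (0.72). GLUL was nearest to KIAA0196 (0.78), AGTR1 (0.70) and the interferon-induced IFIT2 (0.69). ASL had NFKBIB (0.72), FAU (0.64) and POR (0.63), NAGS had EAF2 (0.60), SHMT2 (0.57) and FMO4 (0.55), and SLC25A15 had TTPAL (0.60), COX15 (0.59) and ANKHD1 (0.58). These are descriptions over biopsies that are not independent.

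Other genes of nitrogen metabolism gave the setting of the 9. Of 29 genes of amino acid catabolism, 19 were lower and none higher at week 7, and 12 were lower and none higher at week 15, with a median log2 difference of -0.40 and -0.38. Of all genes tested, 23% were lower and 23.6% higher at week 7, and 19.2% were lower and 22.3% higher at week 15. The lowest at week 15 were HAL, histidine ammonia-lyase (-1.78 ± 0.35, adjusted p = 0.00059), PRODH, proline dehydrogenase (-1.13 ± 0.32, adjusted p = 0.0097), and GLDC of the glycine cleavage system (-1.03 ± 0.21, adjusted p = 0.00067). No gene of this list was called at week 19 or 23, where none of all genes was.

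Of 15 genes that supply aspartate, ornithine and arginine, 1 was higher and 4 were lower at week 15, with a median of 0.01. The shares over all genes tested were 22.3% higher and 19.2% lower. SLC7A1, a carrier of cationic amino acids, was higher (1.66 ± 0.32, adjusted p = 0.00051). SIRT3, SLC25A13 and AQP9 were the lowest, at -0.74 ± 0.12, -0.67 ± 0.15 and -0.63 ± 0.13. SLC25A13 is the mitochondrial carrier that exports aspartate for ASS1. Of 16 genes of glutamate, glutamine and transamination, 4 were higher and 3 lower at week 15, with a median of -0.03. The higher ones included GPT2, a mitochondrial alanine aminotransferase (1.06 ± 0.41, adjusted p = 0.047), and RHBG, an ammonia transporter found with GLUL around the central vein (0.66 ± 0.13, 0.00046). The lower ones included SLC38A4 (-0.45 ± 0.15) and SLC38A3 (-0.45 ± 0.10), of which the last is a glutamine carrier of hepatocytes.

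Among 10 regulators of these pathways, 2 were higher and 2 lower at week 15, where 22.3% of all genes tested were higher and 19.2% lower. The higher ones were NR3C1, the glucocorticoid receptor (1.12 ± 0.11, adjusted p = 1.4e-07), and PPARGC1A (0.54 ± 0.20, 0.040). CEBPA, a hepatocyte transcription factor, was lower (-0.99 ± 0.25, 0.0045), as was KLF15 (-0.44 ± 0.14, 0.021). GLUL marks the perivenous zone. Of 15 other perivenous genes, 1 was higher at week 15 (RHBG) and 4 were lower, among them CYP7A1, the rate-limiting enzyme of bile acid synthesis (-2.33 ± 0.44, adjusted p = 0.00036), SP5 (-1.16 ± 0.27) and ZNRF3 (-0.81 ± 0.13), and the median was -0.22. Of 12 periportal genes besides those of the 9, 1 was higher (CDH1, 0.31 ± 0.07) and 4 were lower, HAL among them, with a median of -0.29. The median of all genes at week 15 was -0.01.

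**Figure D5:**
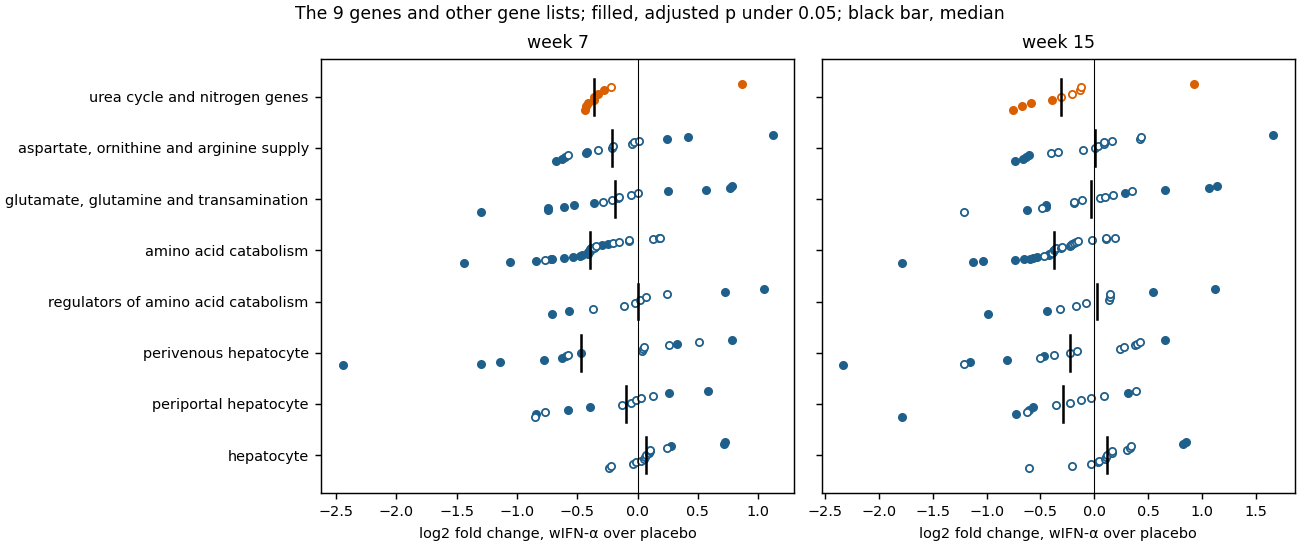
Log2 fold change of wIFN-α over placebo at weeks 7 and 15 for the 9 genes (orange) and for 7 other gene lists (blue), with a point per gene, filled where the adjusted p was under 0.05, and a black bar at each list's median. GLUL stands apart on the right of the first row, the amino acid catabolism list has its median at -0.40 and -0.38, and the hepatocyte list has no filled point below 0.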

How the data were processed

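RNA of 164 liver biopsies was sequenced by the authors as poly(A) libraries, mapped with Bowtie2 to their woodchuck transcriptome and counted with SAMtools, as the labels and the methods state. The authors deposited expected counts per gene and run (118 of 3368023 entries are fractions), and RPKM values, which gave transcript lengths only. A gene not listed in a run was taken as 0. The virus entry was left out. Runs of a biopsy were summed and rounded.

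The 9 genes and the other lists were chosen with earlier results of these data known. All 9 genes are named. Of each other list the called genes are counted, and up to 3 highest and 3 lowest called genes at week 15 with a mean of at least 1 CPM are named. The 3 genes most like each of the 9 by Spearman correlation over placebo biopsies (mean of at least 5 CPM) and MX1 are named as well. Some genes that these rules name are not reported here. Shares of reads on marker lists were computed per biopsy.

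Each week was fitted on its own with edgeR 4.0.16 in R 4.3.3 (TMM, filter on low counts, quasi-likelihood test, Benjamini-Hochberg adjustment over all genes tested, called at an adjusted p under 0.05). Dose and withdrawal were contrasts in a fit of all 16 groups, and the placebo course had a fit of its own. Neither fit had an animal term in its main form, so biopsies of the same animal were taken as independent. As an alternative each animal was a term of its own in edgeR, unlike the block used for the weekly differences. The SE is the log2 difference divided by the square root of F. CPM are TMM-scaled over all biopsies. Alternatives used DESeq2 1.42.0, limma 3.58.1, other scalings and filters, the lane or sex as a covariate, and single animals left out at weeks 0, 7, 15 and 19 and in the contrasts over weeks. A self-test used simulated data with the groups of week 15 and 15151 genes, and the same set spread for every gene. In it 6 of 50 genes changed 1.5-fold, 28 of 50 changed 2-fold and 49 of 50 changed 3-fold were recovered. Biopsies of the same animal carry its number in the labels. After subtracting each group's mean over 13916 genes, the median correlation was 0.32 for 422 pairs of biopsies of the same animal and -0.02 for 4119 pairs of different animals. Python 3.11.15, numpy 2.4.6, pandas 2.3.3 and matplotlib 3.10.9 were used for tables and figures.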

Additional observations from a re-analysis of the deposited data

Results flagged for a closer look

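Among the 90 sets of 4 to 10 animals in which a single value far from the others was looked for (9 genes, groups of each week), 2 held one, where chance gives about 1 in 20. OTC in the placebo animal M1008 at week 15 was 214 CPM, against 275 to 324 CPM in the other 8 placebo animals. This biopsy is the one whose 2 runs differed, at 260 and 240 CPM of OTC before TMM scaling, and its muscle share was below the limit of 5%. ASL in the placebo animal M1011 at week 19 was 156 CPM, against 126 to 130 CPM in the other 4.

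The effect of wIFN-α differed between the high-dose weeks and follow-up for 3 of the 9 genes by the test of the difference itself. The change was -0.77 for GLUL, 0.73 for NAGS and 1.28 for GLS2 on the log2 scale (adjusted p of 8.3e-05, 0.0032 and 0.0019 in edgeR).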

How the results depend on the processing

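No called difference changed sign in any alternative. Of 2637 alternative values of single genes, 120 lost and 38 gained the call, and 83 that were called in neither fit changed sign. GLUL at weeks 0, 3, 7, 11 and 15, and NAGS at weeks 11 and 15, were called in every alternative run. NAGS at week 0 lost its call only where a fold above 1.5 was required. The count of called genes stayed within 1.5 times in 269 of 293 alternatives. With a fold above 1.5 required it was 1 at weeks 0, 3 and 7, 3 at week 11 and 2 for late against early placebo weeks. With the animal as a replicate block it was 1, 1, 2 and 2 at weeks 3, 7, 11 and 15, and in one fit of all weeks 1, 1, 2 and 3. Without the muscle-rich biopsies (added after seeing the data) the blocked fit gave 1 and 2 at weeks 3 and 7 and 1 at week 23 (CPS1), and the fit of all weeks gave 1, 2, 3 and 3 at weeks 3 to 15. With the lane as a covariate 3 were called at week 15. Leaving out the muscle-rich biopsies gave 6 for withdrawal and 5 for follow-up in placebo. Leaving out single animals gave 3 to 6 for withdrawal, 6 with F1018 left out. The level order and the changes from week -3 to week 0 without these biopsies were also added after seeing the data. The cause of these shifts was not tested. Total counts moved the median of all genes at week 0 to -0.19 and at week 7 to -0.13, and left the called directions. The self-test recovered few 1.5-fold changes at its set spread, which was not estimated from these genes. In the data ASS1 was called at week 15 at a 1.31-fold lower level. How often differences of that size go uncalled here was therefore not measured, and some may.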

Other observations

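Biopsies outside the comparisons gave these levels. In M1004, the wIFN-α animal set aside by the study, GLUL was 752 CPM at week -3, 1573, 1427, 1333, 1017 and 949 CPM at weeks 0, 3, 7, 11 and 15, and 464 CPM at week 19. In the same biopsies NAGS was 58.0 CPM at week -3, 41.3 to 57.0 CPM at weeks 0 to 15 and 77.3 CPM at week 19, and GLS2 was 34.8 to 64.3 CPM at weeks 0 to 15 and 102 CPM at week 19.

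The liver of the wIFN-α animal F1023, sampled when it had died, held 11474 CPM of CPS1, where the 144 compared biopsies below the muscle limit ranged up to 3773 CPM, while OTC was 64.7 CPM, below the lowest of them (97.1 CPM). Its hepatocyte reads were 7.59%. F1020 (wIFN-α), also sampled at death, had 3761 CPM of CPS1, 380 CPM of ASL, above the highest of those 144, 297 CPM, and 21.8 CPM of NAGS, below the 22.0 CPM that was the lowest of those 144 biopsies (the muscle-rich ones reached lower). M1007 (wIFN-α, at death) had 1333 CPM of GLUL with 6908 CPM of MX1, and F1024 (placebo, found dead) had 561 CPM of GLUL and 2117 CPM of CPS1.

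M1010 and F1017 (placebo, week 17) had 519 and 499 CPM of GLUL. M1006 (wIFN-α, labelled week 3) had 875 CPM of GLUL and 3066 CPM of MX1. By the numbering of the other labels this is study week 2, while the study places the animal's euthanasia at week 3. M1002 (wIFN-α, week 25) had 501 CPM of GLUL and 185 CPM of GLS2.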
